A study of Mus musculus with 2 samples.

Results

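The VEGF and angiopoietin ligands and receptors are 10 genes, the ligands Vegfa, Vegfb, Vegfc, Angpt1 and Angpt2 and the receptor tyrosine kinases Kdr, Flt1, Flt4, Tek and Tie1. They were taken by symbol from the 32285 genes of both count matrices, and all 10 were found. Nuclei came from mesenteric perivascular adipose tissue, the fat around mesenteric vessels, of 11-week-old mice, and were profiled by droplet single-nucleus RNA sequencing of 3′ transcript ends in 2 libraries. The control library has the genotype Prdm16flox, and the other has Prdm16flox with AdopiQCre+ (spelled AdipoQCre+ in the series text). That Cre is driven by the adiponectin promoter, which is active in adipocytes, so the floxed Prdm16 allele is carried by both libraries and the Cre by the second alone. The series title names thoracic and abdominal fat, whereas the labels of both libraries name mesenteric fat. The number of mice behind each library is not given in the sources used here. With 1 library per genotype no test between genotypes is possible: every interval below is a 95% counting interval (exact Poisson for a level, exact conditional binomial for a ratio, exact Clopper-Pearson for a share), and it covers counting error only, not the spread between mice. Genotype and library cannot be told apart.

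Vascular endothelial growth factor A binds the receptors VEGFR2 (Kdr) and VEGFR1 (Flt1) and drives the sprouting, survival and permeability of endothelium; Flt1 holds the ligand tightly and signals weakly. Vegfb binds Flt1, and Vegfc, once cleaved, binds VEGFR3 (Flt4) and drives lymphatic growth. Angpt1 activates TIE2 (Tek) and steadies vessels, Angpt2 acts on the same receptor as a context-dependent antagonist, and Tie1 is a partner of Tek without a high-affinity ligand of its own. In fat, VEGF-A made by adipocytes is known to maintain the capillary bed.

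The 5 receptor genes each stood highest in vascular or lymphatic endothelial-like nuclei, and their proximal promoters are shown for that reason. ETS factors, a family that includes Erg, are known regulators of endothelial genes, and the short ETS core (GGAA, or TTCC on the other strand) is set in capitals in the 250 bases before each RefSeq start site (GRCm38.p6), written 5′ to 3′ along the gene's own strand.
Kdr, chr5:75978456-75978705, minus strand: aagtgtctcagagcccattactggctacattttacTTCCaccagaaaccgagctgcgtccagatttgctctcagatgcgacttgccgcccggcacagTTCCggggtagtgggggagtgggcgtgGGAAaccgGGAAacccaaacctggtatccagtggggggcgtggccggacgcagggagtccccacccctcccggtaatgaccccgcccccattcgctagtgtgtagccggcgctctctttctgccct
Flt1, chr5:147726012-147726261, minus strand: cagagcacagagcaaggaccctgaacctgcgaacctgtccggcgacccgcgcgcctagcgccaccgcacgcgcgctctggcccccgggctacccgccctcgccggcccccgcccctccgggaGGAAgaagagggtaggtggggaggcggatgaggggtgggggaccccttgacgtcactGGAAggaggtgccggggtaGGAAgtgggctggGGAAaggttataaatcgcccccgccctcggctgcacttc
Flt4, chr11:49609429-49609678, plus strand: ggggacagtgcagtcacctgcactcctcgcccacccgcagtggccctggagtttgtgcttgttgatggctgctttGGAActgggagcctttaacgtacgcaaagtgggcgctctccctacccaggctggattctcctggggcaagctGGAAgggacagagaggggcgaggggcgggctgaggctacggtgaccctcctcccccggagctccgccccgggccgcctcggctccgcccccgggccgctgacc
Tek, chr4:94739039-94739288, plus strand: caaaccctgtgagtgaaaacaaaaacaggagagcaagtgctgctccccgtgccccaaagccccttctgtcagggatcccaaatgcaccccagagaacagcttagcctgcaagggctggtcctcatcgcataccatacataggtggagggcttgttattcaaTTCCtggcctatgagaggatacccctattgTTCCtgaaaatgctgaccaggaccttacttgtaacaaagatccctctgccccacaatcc
Tie1, chr4:118489850-118490099, minus strand: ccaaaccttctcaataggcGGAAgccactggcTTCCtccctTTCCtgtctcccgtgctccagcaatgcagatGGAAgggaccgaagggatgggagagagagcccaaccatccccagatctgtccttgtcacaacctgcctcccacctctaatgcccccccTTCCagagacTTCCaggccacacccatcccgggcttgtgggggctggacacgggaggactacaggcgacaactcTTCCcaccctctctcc
The core occurred 7 times before Tie1, 4 times before Kdr, 4 times before Flt1, 2 times before Flt4 and 2 times before Tek. Among 32851 windows of the same length before mouse start sites, 93.4% hold at least 1 match, the median is 3 and the 95th percentile is 6. Such short matches are a description of the letters and not of bound sites. Of the 10 genes, 8 have an entry in that RefSeq table. Among the ligands in it, the core occurred 6 and 2 times before the start sites of Vegfa, and 1 time before Vegfb and before Vegfc.

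The control library held 12060 barcodes and 108987031 UMIs (unique molecular identifiers, counted molecules), and the library labelled cKO held 8086 barcodes and 70895490 UMIs. After filtering, 10532 and 7374 nuclei remained, with median depths of 7035 and 6522 UMIs. Clustering without the 10 genes gave 26 clusters, and cell classes were named from marker genes with the suffix "-like". Adipocyte-like nuclei numbered 4423 in the control library and 3049 in the library labelled cKO, vascular endothelial-like nuclei 440 and 281, and lymphatic endothelial-like nuclei 355 and 156. Prdm16 stood at 16.7 CPM in control adipocyte-like nuclei and 22.3 CPM in those of the library labelled cKO, where CPM (counts per mega-UMI) is the UMIs of a gene scaled to all UMIs of the class; the labels do not say which exon is floxed, so a 3′ count does not check the deletion. RNA free in the droplet gives a gene UMIs in nuclei that do not express it, so the level in the T and B cell-like nuclei of the same library is given as the background. The 10 adipocyte markers had a median level in T cell-like nuclei of 32.5% of the adipocyte-like level in the control library and 44.1% in the library labelled cKO, and in B cell-like nuclei 28.1% and 50.6%. In pancreatic acinar-like nuclei the median was 49.6% and 44.4%, lower in the library labelled cKO. The libraries shared 24 barcodes among kept nuclei.

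The ligands and receptors fell into different cells. Vegfa, Vegfb and Angpt1 stood highest or near highest in adipocyte-like nuclei, Vegfc in vascular endothelial-like and fibroblast-like nuclei, and Angpt2 in lymphatic endothelial-like nuclei and in mural cells, the pericytes and smooth muscle cells of the vessel wall. Flt1 marked vascular endothelial-like nuclei, Flt4 marked lymphatic endothelial-like nuclei, and Kdr, Tek and Tie1 were present in both kinds. Outside endothelium, Tek was measured in fibroblast-like cluster 2 and Kdr in mesothelial-like nuclei. This arrangement was the same in both libraries at the level of the leading classes, except that the leading class of Vegfb and Angpt2 differed within overlapping intervals.

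**Figure D1:**
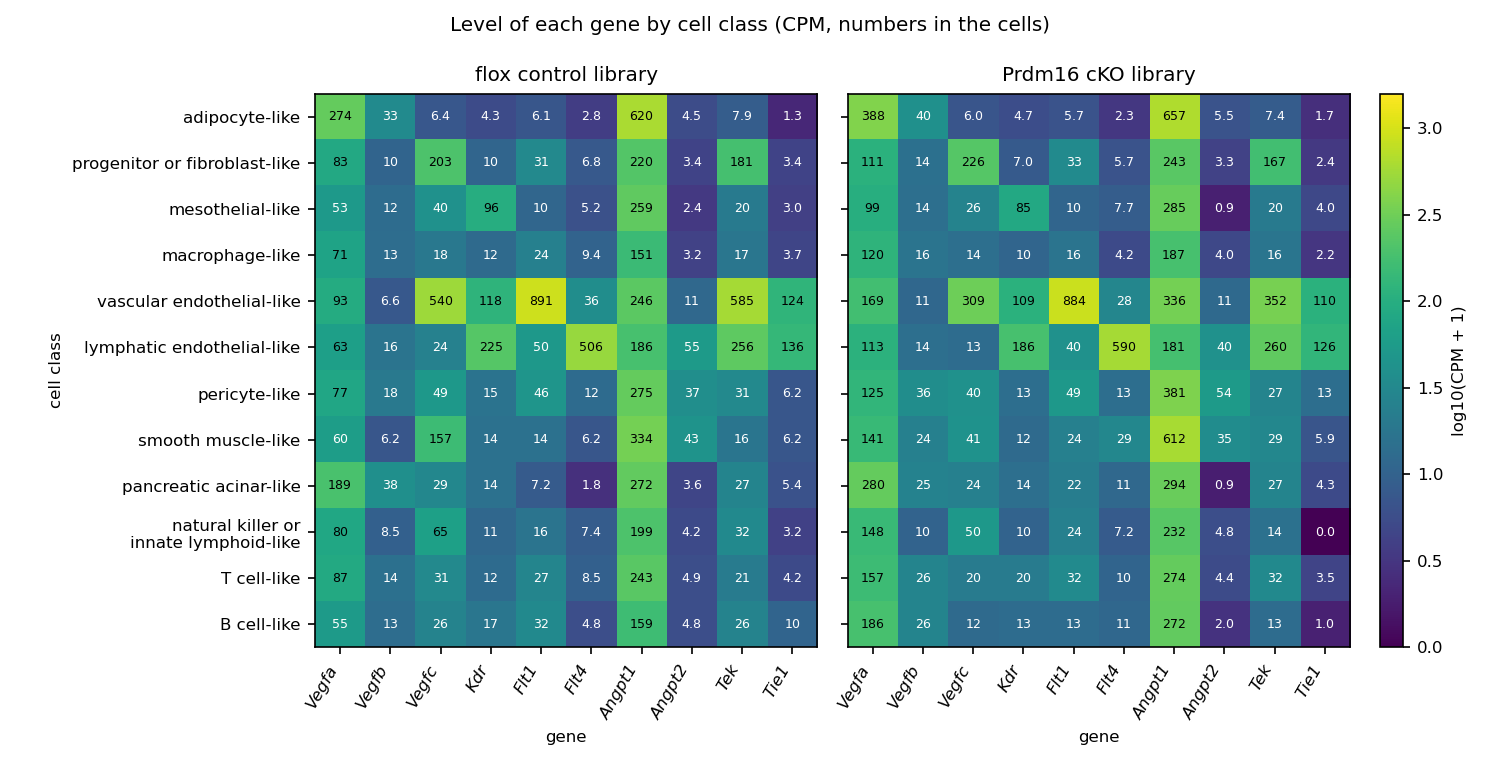
Level of each gene (columns) in 12 cell classes (rows) in the control library (left) and the library labelled cKO (right); the number in each cell is CPM and the colour is log10(CPM + 1). Flt1 stands at 891 and 884 CPM in vascular endothelial-like nuclei and Flt4 at 506 and 590.3 CPM in lymphatic endothelial-like nuclei, while Vegfa and Angpt1 are highest in adipocyte-like nuclei and present in every class.

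Vegfa (mm10 chr17:46016993-46032369, minus strand) measured 274 CPM (269 to 278) in control adipocyte-like nuclei and 388 CPM (381 to 394) in those of the library labelled cKO. Adipocyte-like nuclei held 84.8% of the Vegfa UMIs of all kept control nuclei and 81.4% of those in the other library. The next class, pancreatic acinar-like nuclei dissected along with the mesenteric fat, stood at 189 CPM (155 to 229) and 279.8 CPM (250.2 to 312). In the control library the vascular endothelial-like level of 93.2 CPM was the next below that, and its interval, from 82.1 to 105, overlapped the interval of 73.2 to 102 for T cell-like nuclei. The adipocyte-like level was 3.74 times the T and B cell-like level in the control library and 2.27 times in the library labelled cKO. When every nucleus was thinned to 1000 UMIs, 24.7% of control adipocyte-like nuclei (23.4% to 26.0%) and 31.9% of those in the library labelled cKO (30.2% to 33.6%) had a Vegfa UMI, against 8.15% and 9.95% of T cell-like nuclei. Without thinning the adipocyte-like shares were 91.5% and 94.8%, at median depths of 12124 and 11695 UMIs, and the T cell-like shares were 29.6% and 35.6% at median depths of 3612 and 3696 UMIs. Vegfa in adipocyte-like nuclei therefore stood above free RNA in both libraries.

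Between the libraries the Vegfa ratio in adipocyte-like nuclei was 1.42-fold, a log2 ratio of 0.50 (0.47 to 0.53), which is below the 1.5-fold mark used here for a call. None of the 10 genes passed 1.5-fold in adipocyte-like nuclei, where 11.0% of the 16666 genes with at least 30 UMIs did so in either direction. Their median log2 ratio was 0.10, against 0.04 over all those genes. The T and B cell-like level of Vegfa was also higher in the library labelled cKO, at 171 CPM (154 to 189) against 73.2 CPM (63.6 to 83.7). Subtracting that level from the adipocyte-like level of the same library left a log2 ratio of 0.11. The part of free RNA in the Vegfa difference was not tested beyond that subtraction, which assumes that all Vegfa in T and B cell-like nuclei is free and that adipocyte nuclei carry as much.

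Vegfa also followed adipocyte state. The adipocyte-like nuclei formed 5 clusters, of which clusters 3 and 6 were led by fatty acid synthesis genes (Elovl6, Acly, Me1) and cluster 0 by Nnat, Tshr and Npr3. In the control library Vegfa was lowest in cluster 0, at 242 CPM, and highest in cluster 6, at 332 CPM. In the library labelled cKO it was again lowest in cluster 0, at 320.4 CPM, and highest in cluster 6, at 424 CPM. Cluster 3 stood at 319 and 420.1 CPM, cluster 8 at 284 and 372 CPM, and cluster 1 at 266 and 367 CPM. All 5 clusters had the same order of Vegfa levels in both libraries, although clusters 1 and 8 were close to each other, as were 3 and 6. Cluster 0 held 37.2% of control adipocyte-like nuclei and 16.6% of those in the library labelled cKO, whereas cluster 6 held 6.76% and 22.2%. Within single clusters the log2 ratio of Vegfa lay between 0.35 and 0.46, and with the 5 clusters weighted alike it was 0.40, so the ratio within states was smaller than the pooled one.

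Angpt1 (mm10 chr15:42424723-42676977, minus strand) was likewise an adipocyte transcript, at 620.0 CPM (614 to 626) in the control library and 657 CPM (649 to 665) in the library labelled cKO. After thinning, 39.9% and 42.6% of adipocyte-like nuclei had an Angpt1 UMI, against 21.7% and 18.1% of T cell-like nuclei. Its order over the adipocyte-like clusters was the reverse of that of Vegfa. Cluster 0 was highest, at 717 CPM in the control library and 867 CPM in the library labelled cKO, and cluster 6 was lowest, at 391 and 517 CPM. Cluster 1 stood at 658 and 715 CPM, cluster 8 at 578 and 700.0 CPM, and cluster 3 at 482 and 586 CPM. The lipogenic clusters thus had the higher Vegfa and the lower Angpt1 CPM in either library. Clusters 3 and 6 had a median adipocyte marker level between 79.2% and 90.1% of the class level, and clusters 0 and 1 between 103% and 125%.

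The pooled Angpt1 log2 ratio between libraries was 0.08 (1.06-fold). Within the clusters it was higher, from 0.12 in cluster 1 to 0.40 in cluster 6, and 0.26 with the clusters weighted alike. The cluster that held the most control nuclei was the one with the most Angpt1, and it was smaller in the library labelled cKO. Subtracting the T and B cell-like level, 207 CPM in the control library and 273 CPM in the library labelled cKO, turned the pooled ratio to -0.11. Annotation places Angpt1 opposite the antisense transcript Gm17473; whether reads were counted by strand is not given in the sources used here.

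**Figure D2:**
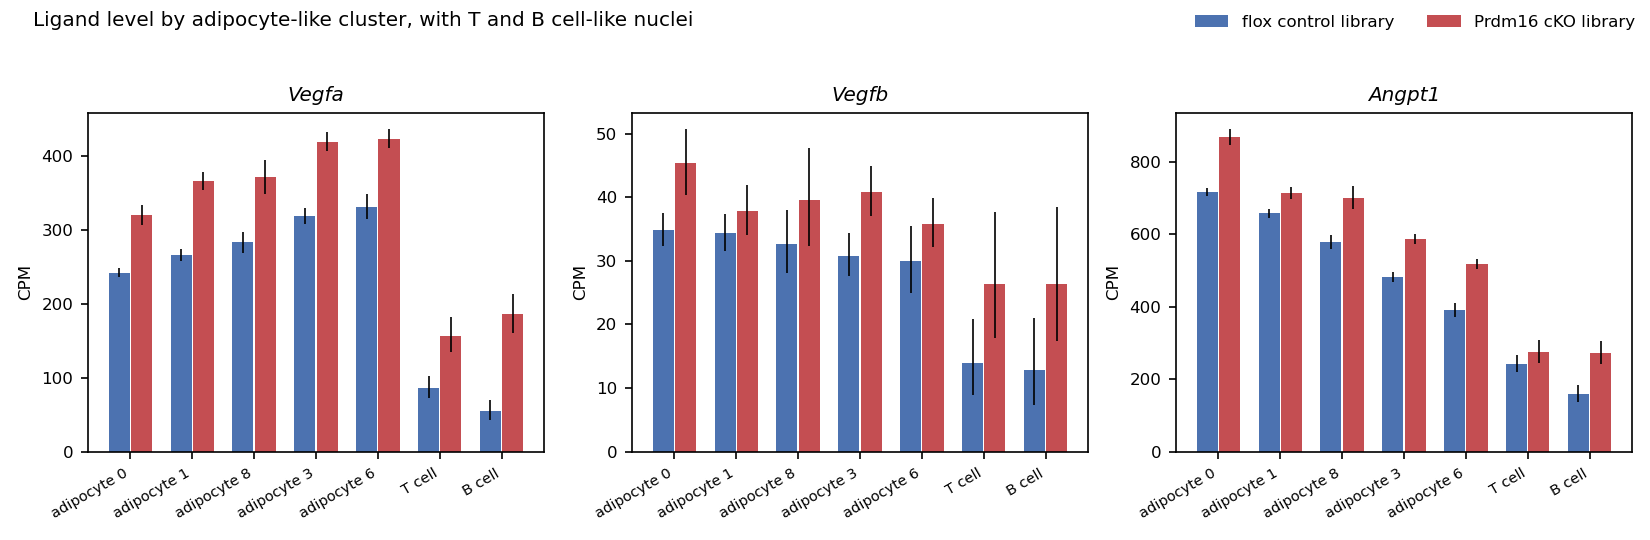
Level of Vegfa, Vegfb and Angpt1 (CPM, bars, with 95% Poisson intervals) in the 5 adipocyte-like clusters and in T and B cell-like nuclei of both libraries. From left to right the adipocyte-like clusters go up in Vegfa, from 242 to 332 CPM in the control library, and down in Angpt1, from 717 to 391 CPM.

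Outside adipocytes, Angpt1 stood at 334 CPM (285 to 389.6) in control smooth muscle-like nuclei and 612 CPM (500.4 to 742) in those of the library labelled cKO. The second value overlaps the adipocyte-like interval of its own library. These levels rest on 63 and 36 nuclei. The adipocyte markers in them stood at a median of 18.6% and 42.9% of the adipocyte-like level, and the part of free RNA in the Angpt1 value was not tested. Pericyte-like nuclei had 275 CPM (220.5 to 338) and 381 CPM (304 to 471), and the first of these intervals overlaps that of the T and B cell-like level (191 to 224). Mural cells are a textbook source of Angpt1. In these libraries adipocyte-like nuclei held 36106 and 25958 UMIs of it and smooth muscle-like nuclei 162 and 104.

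Vegfb (mm10 chr19:6982473-6987651, minus strand), a ligand of Flt1 alone, was low throughout, at 33.4 CPM (32.0 to 35.0) in control adipocyte-like nuclei and 39.5 CPM (37.6 to 41.5) in the library labelled cKO. Control acinar-like nuclei stood at 37.9 CPM, with an interval from 23.5 to 57.9 that includes the adipocyte-like level. The background in T and B cell-like nuclei was 13.5 CPM (9.62 to 18.5) in the control library and 26.4 CPM in the library labelled cKO, where the upper bound of 34.2 CPM lies under the adipocyte-like level. The log2 ratio between libraries was 0.24 (0.14 to 0.34). Over the adipocyte-like clusters Vegfb was highest in cluster 0 and lowest in cluster 6 in both libraries, the reverse of Vegfa. The control levels of those 2 clusters were 34.9 CPM (32.4 to 37.5) and 29.9 CPM (25.0 to 35.5), which overlap. In the library labelled cKO they were 45.3 CPM (40.3 to 50.7) and 35.8 CPM (32.1 to 39.8), which do not.

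Vegfc (mm10 chr8:54077606-54187096, plus strand) was the ligand made by the vessels and the stroma. Vascular endothelial-like nuclei had 540.0 CPM (513 to 568) in the control library and 309 CPM (283 to 336) in the library labelled cKO, and fibroblast-like nuclei had 203 CPM (193 to 214) and 226 CPM (213 to 239). Smooth muscle-like nuclei stood at 157 CPM (123 to 196) and 41.2 CPM (16.6 to 84.9), the second from 7 UMIs. The T and B cell-like background was 28.8 and 16.2 CPM, so endothelium was 18.8 and 19.1 times above it. Adipocyte-like nuclei had 6.39 CPM in the control library, with a log2 ratio of -0.09 to the other library, under that background in both.

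Within endothelium the Vegfc signal came mainly from a small cluster. Cluster 21, led by Mecom, Samd12 and Bmx and carrying the arterial genes Gja5 (279 and 215 CPM) and Sema3g (206 and 184 CPM), had 1275 CPM of Vegfc in the control library and 1099 CPM in the library labelled cKO. Cluster 20, led by Vwf, had 292 and 208 CPM, and cluster 13, led by Ccdc85a and Adgrl4, had 67.6 and 63.9 CPM. The order of the 3 clusters was the same in both libraries, with no overlap of intervals. Cluster 21 was 23.6% of control vascular endothelial-like nuclei and gave 81.4% of their Vegfc UMIs; in the library labelled cKO it was 17.4% of nuclei and gave 72.6%. Fibroblast-like nuclei differed as well: cluster 14, led by Itgbl1 and Nkain3, had 354 and 496 CPM, above the 176 and 182 CPM of cluster 2, which carries Gpc6, Gfpt2 and Col14a1.

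The pooled log2 ratio of Vegfc in vascular endothelial-like nuclei was -0.81 (-0.95 to -0.66). Taken within each cluster it was -0.21 in cluster 21, -0.49 in cluster 20 and -0.08 in cluster 13, all inside the 1.5-fold mark, so the pooled value includes the smaller share of cluster 21. With the clusters weighted alike the ratio was -0.25, and without doublet removal it was -0.42. In mesothelial-like nuclei the ratio was -0.63 (40.5 and 26.2 CPM), and in lymphatic endothelial-like nuclei -0.93 (24.3 and 12.7 CPM, the second from 13 UMIs). The lymphatic levels lie inside the T and B cell-like intervals (22.9 to 35.7 and 11.3 to 22.5 CPM). The mesothelial ratio was -0.23 after subtracting the T and B cell-like level, -0.10 as a mean over nuclei and -0.02 after thinning, and 10 of 14 alternatives kept it past 1.5-fold.

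Angpt2 (mm10 chr8:18690263-18741562, minus strand) was rare, with 54.8 CPM (45.5 to 65.4) in control lymphatic endothelial-like nuclei, 43.3 CPM (26.8 to 66.2) in smooth muscle-like nuclei and 37.0 CPM (19.1 to 64.7) in pericyte-like nuclei. In the library labelled cKO the same classes had 40.2, 35.3 and 53.8 CPM. These 3 levels overlap in their intervals in either library, and each stood above the T and B cell-like level of 4.86 and 3.24 CPM. Vascular endothelial-like nuclei, which are known to store Angpt2 protein, had 11.0 CPM (7.40 to 15.6) and 11.4 CPM (6.95 to 17.6). Adipocyte-like nuclei held 264 control UMIs of Angpt2, more than any other class, at a level of 4.53 CPM that lies inside the background interval of 2.65 to 8.15 CPM. Angpt2 lies on the opposite strand inside Mcph1, whose level was 181 and 166 CPM in adipocyte-like nuclei, the highest of the 12 classes in either library, and 80.9 and 117 CPM in lymphatic endothelial-like nuclei. Without strand, reads of the pair cannot be told apart, and for Angpt2 in adipocyte-like nuclei their part was not tested.

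Flt1 (mm10 chr5:147561604-147726011, minus strand) was highest in vascular endothelial-like nuclei, which held 67.7% of its UMIs in the control library and 66.7% in the library labelled cKO. Vascular endothelial-like nuclei had 891 CPM (856 to 927) in the control library and 884 CPM (841 to 929) in the library labelled cKO, a log2 ratio of -0.01. The T and B cell-like level was 29.5 and 23.1 CPM, so the vascular level was 30.2 and 38.2 times as high. After thinning, 50.2% and 50.4% of vascular endothelial-like nuclei had an Flt1 UMI, against 1.90% and 1.36% of T cell-like nuclei. All 3 vascular clusters carried it, from 1172 CPM in control cluster 13 to 644 CPM in control cluster 21. Lymphatic endothelial-like nuclei had 50.3 and 40.2 CPM, mostly in cluster 19, at 87.1 and 77.9 CPM, against 20.4 and 16.1 CPM in cluster 15. Flt1 was also measured in fibroblast-like cluster 14, at 124 and 167 CPM, against 14.1 and 11.5 CPM in cluster 2. The 12 vascular endothelial markers stood in cluster 14 at a median of 2.88% and 3.02% of their level in vascular endothelial-like nuclei, and at most at 5.10% and 6.83%.

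Kdr (mm10 chr5:75932827-75978458, minus strand) followed another order. Lymphatic endothelial-like nuclei were highest, at 225 CPM (205 to 245) and 186 CPM (161 to 215), followed by vascular endothelial-like nuclei at 118 CPM (106 to 132) and 109 CPM (93.7 to 125). Among vascular clusters, Kdr lay in cluster 13, at 243 CPM in the control library and 151 CPM in the library labelled cKO, which gave 83.3% and 78.0% of the vascular Kdr UMIs. Cluster 20 had 42.4 and 94.3 CPM and cluster 21 had 26.5 and 8.37 CPM, the last from 3 UMIs. The pooled log2 ratio of -0.12 therefore joins -0.69 (-0.99 to -0.39) in cluster 13 and 1.15 (0.42 to 1.90) in cluster 20, where it rests on 29 and 39 UMIs. With the 3 clusters weighted alike the ratio was -0.30. The 12 vascular endothelial markers summed to 5456 and 3900.3 CPM in cluster 13 and to 6323 and 5738 CPM in cluster 20. How much of the Kdr ratio of cluster 13 is shared with these markers was not tested.

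Mesothelial-like nuclei, from the serosal lining of the mesentery, had 96.5 CPM of Kdr (89.2 to 104) and 85.3 CPM (75.6 to 96.0). In the control library that is just below the vascular level, and in the library labelled cKO the 2 intervals overlap. Both mesothelial-like clusters carried it, cluster 7 at 96.5 and 90.7 CPM and cluster 10 at 96.6 and 78.2 CPM. Because the class is large, it held 646 Kdr UMIs in the control library, more than the 324 of vascular endothelial-like nuclei and the 500 of lymphatic endothelial-like nuclei. The other receptors were at or near background there: Flt1 stood at 10.5 and 10.2 CPM and Tie1 at 2.99 CPM in the control library, from 20 UMIs, with 13 UMIs in the library labelled cKO. The 12 vascular endothelial markers had a median of 2.18% and 3.17% of their endothelial level in mesothelial-like nuclei, with Cdh5 at 4.18 and 5.24 CPM against 207 and 160.4 CPM in vascular endothelial-like nuclei. The 2 highest of them, Adgrf5 and Esam, stood between 36.7% and 42.1%.

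Flt4 (mm10 chr11:49609263-49652739, plus strand) was the lymphatic receptor in these nuclei, at 506 CPM (477 to 537) in the control library and 590.3 CPM (544 to 639) in the library labelled cKO. That is 73.0 and 58.0 times the T and B cell-like level. Vascular endothelial-like nuclei had 36.2 CPM (29.4 to 44.0) and 28.4 CPM (21.1 to 37.5), and in the second library smooth muscle-like nuclei reached 29.4 CPM from 5 UMIs. The lymphatic clusters differed in Flt4: cluster 15, led by Reln, Mmrn1 and Prox1, had 770.0 and 833 CPM, and cluster 19, led by Nrxn3 and Foxp2, had 182 and 211 CPM. Cluster 19 was mixed in its markers: the 12 vascular endothelial markers stood there at a median of 89.5% and 96.6% of their vascular level, against 45.2% and 52.8% in cluster 15. Prox1, the regulator of lymphatic identity, was present in both, at 938 and 1002 CPM in cluster 15 and 673 and 593 CPM in cluster 19. Kdr and Flt4 were found together in 51.0% of lymphatic endothelial-like nuclei of the control library and 53.8% of those in the library labelled cKO, and in 7.50% and 6.41% of vascular endothelial-like nuclei, without thinning.

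**Figure D3:**
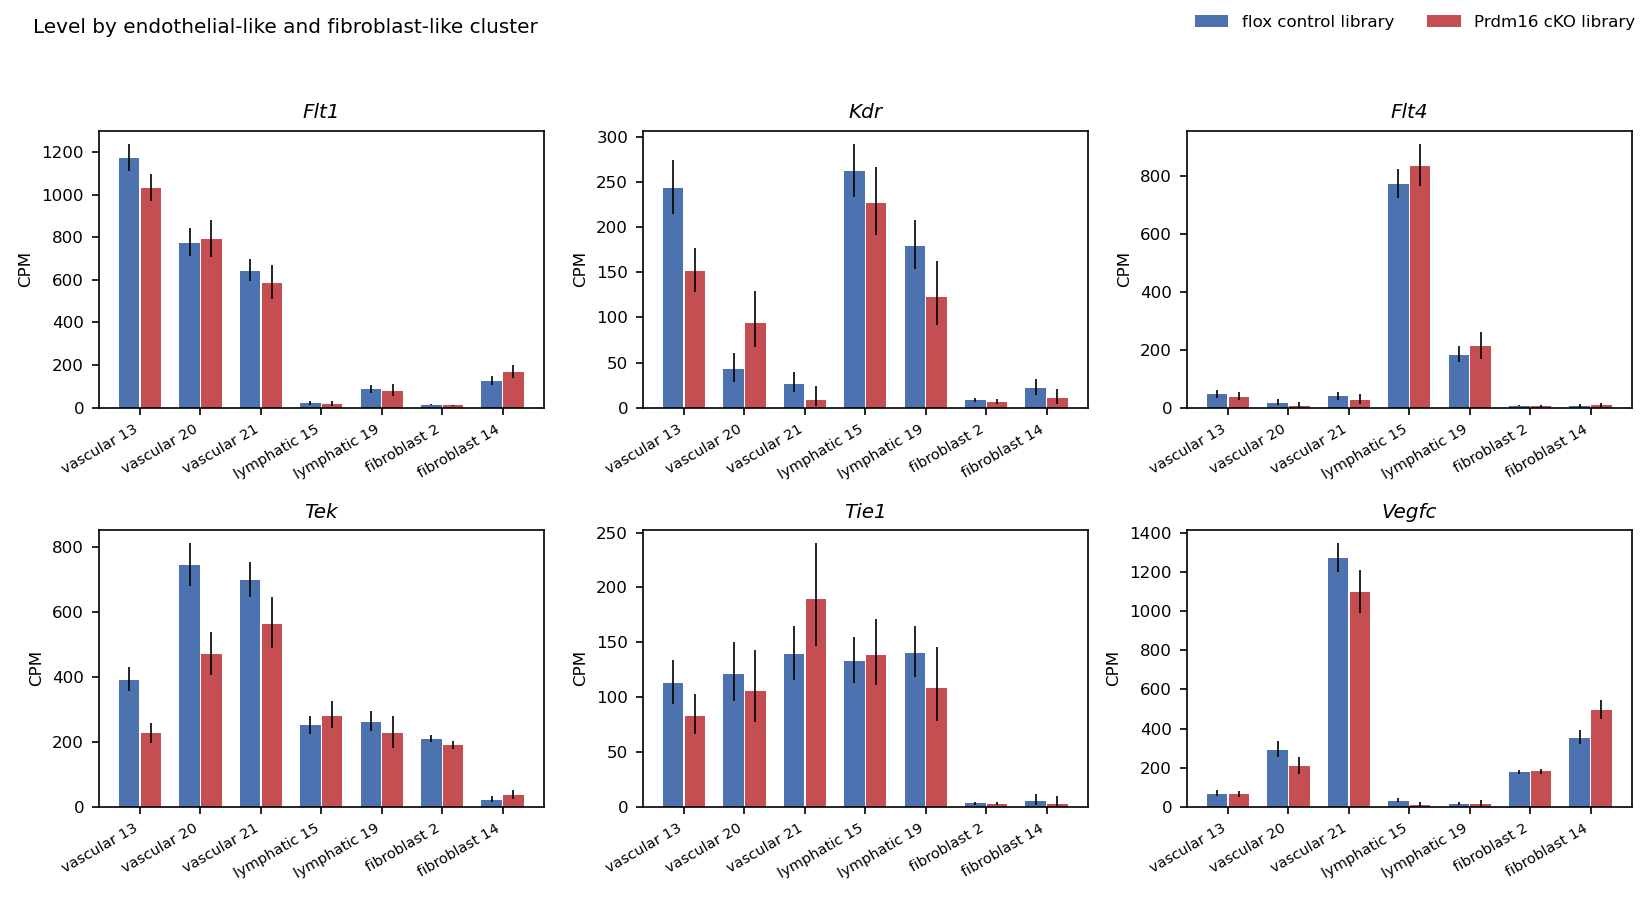
Level of the 5 receptors and of Vegfc (CPM, bars, with 95% Poisson intervals) in 3 vascular, 2 lymphatic and 2 fibroblast-like clusters of both libraries. Vegfc peaks in vascular cluster 21 (1275 and 1099 CPM), Kdr in vascular cluster 13 and lymphatic cluster 15, Flt4 in lymphatic cluster 15, and Tek reaches 209 and 189 CPM in fibroblast-like cluster 2.

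Tek (mm10 chr4:94739289-94874976, plus strand), the angiopoietin receptor, stood at 585 CPM (557 to 614) in control vascular endothelial-like nuclei and 352 CPM (325 to 381) in those of the library labelled cKO. Lymphatic endothelial-like nuclei had 256 CPM (236 to 278) and 259.9 CPM (229.5 to 293). Among vascular clusters Tek was higher in clusters 20 (744 and 469 CPM) and 21 (697 and 563 CPM) than in cluster 13 (391 and 226 CPM), whereas Kdr and Flt1 were highest in cluster 13. Flt1 and Tek were found together in 68.4% and 60.5% of vascular endothelial-like nuclei.

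The log2 ratio of Tek in vascular endothelial-like nuclei was -0.73 (-0.87 to -0.60), and in lymphatic endothelial-like nuclei it was 0.02 (-0.19 to 0.23). Tek was lower within each vascular cluster, by a log2 ratio of -0.79 in cluster 13, -0.67 in cluster 20 and -0.31 in cluster 21. It passed 1.5-fold in clusters 13 and 20, whereas Vegfc, also lower in each cluster, passed it in none of them. After thinning, 36.3% of control vascular endothelial-like nuclei (31.8% to 41.0%) and 27.0% of those in the library labelled cKO (21.8% to 32.8%) had a Tek UMI. The general endothelial markers Pecam1 (1628 and 1242 CPM) and Cdh5 (207 and 160.4 CPM) were also lower in the pooled class. Within cluster 20 Pecam1 stood at 1461 and 1506 CPM, and within cluster 21 at 2824 and 2954 CPM. In cluster 13 Pecam1 stood at 714 and 510.0 CPM. The 12 vascular endothelial markers summed to 6323 and 5738 CPM in cluster 20 and to 6499 and 6663 CPM in cluster 21. In cluster 13 they summed to 5456 and 3900.3 CPM. Adipocyte markers in the vascular endothelial-like nuclei stood at a median of 24.7% of the adipocyte-like level in the control library and 43.7% in the library labelled cKO. Over the clusters the 2 values were 32.9% and 60.6% in cluster 13, and 22.2% and 27.4% in cluster 20; in cluster 21 the markers summed to 1201 and 1364 CPM, against 3002 and 4911 CPM in cluster 13. The part of free RNA in the Tek difference was not tested further. Weighting the 3 clusters alike gave a ratio of -0.54, and without doublet removal it was -0.51; all of 16 alternative settings kept it below 0, and 11 kept it past 1.5-fold.

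Fibroblast-like nuclei were the third site of Tek, at 181 CPM (171 to 191) and 167 CPM (157 to 179), against a T and B cell-like level of 22.9 and 22.7 CPM. Cluster 2 held 98.2% and 97.0% of these UMIs, at 209 and 189 CPM, and cluster 14 stood at the background, at 21.5 and 35.3 CPM. In the same cluster 2 the partner Tie1 was at 3.04 and 2.34 CPM, and the 12 vascular endothelial markers were at a median of 2.05% and 2.02% of their endothelial level, at most 9.13% and 11.8%. Cluster 2 had more of the interstitial progenitor markers Dpp4 (177 and 161 CPM) and Pi16 (113 and 121 CPM) than cluster 14 (81.5 and 124 CPM, and 33.1 and 28.8 CPM). Dpp4 does not single out these nuclei, with 173 and 157 CPM in B cell-like and 687 and 811 CPM in mesothelial-like nuclei. Pi16 stood at 8.09 and 11.7 CPM in B cell-like and 7.17 and 7.09 CPM in mesothelial-like nuclei. In thinned fibroblast-like nuclei with a Dpp4 or Pi16 UMI, 20.7% (15.3% to 27.0%) had a Tek UMI in the control library, against 10.4% (8.49% to 12.5%) of those without. In the library labelled cKO the shares were 17.6% (12.0% to 24.4%) and 12.1% (9.78% to 14.8%), which overlap. The split was made over both fibroblast-like clusters together, so it includes the difference between them. The 2 fibroblast-like clusters thus held different receptors, Tek in cluster 2 and Flt1 in cluster 14, in both libraries.

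Tie1 (mm10 chr4:118471191-118490061, minus strand) stood at like levels in the 2 kinds of endothelium. Lymphatic endothelial-like nuclei had 136 CPM (121 to 152) and 126 CPM (106 to 150.3), and vascular endothelial-like nuclei 124 CPM (111 to 138) and 110.3 CPM (95.3 to 127), with overlapping intervals in each library. The T and B cell-like level was 6.59 and 2.31 CPM. Between libraries the log2 ratio was -0.17 in vascular and -0.11 in lymphatic endothelial-like nuclei, and both intervals include 0. The 5 clusters of endothelium ranged from 113 to 140.2 CPM in the control library and from 83.1 to 189.7 CPM in the library labelled cKO. Without thinning, Tek and Tie1 were found together in 40.0% and 32.4% of vascular endothelial-like nuclei. In lymphatic endothelial-like nuclei the shares were 35.2% and 33.3%.

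Counting UMIs rather than levels shows which class supplied each transcript to the library. Adipocyte-like nuclei supplied the bulk of Vegfa, Vegfb and Angpt1, vascular endothelial-like nuclei the bulk of Flt1, and lymphatic endothelial-like nuclei the bulk of Flt4. For Tek, fibroblast-like nuclei held 1329 control UMIs, close to the 1601 of vascular endothelial-like nuclei, and in the library labelled cKO they held more, 915 against 619. For Vegfc, fibroblast-like nuclei held 1496 UMIs and vascular endothelial-like nuclei 1478 in the control library, and 1234 and 543 in the library labelled cKO. These shares depend on how many nuclei of a class were recovered as well as on its level.

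**Figure D4:**
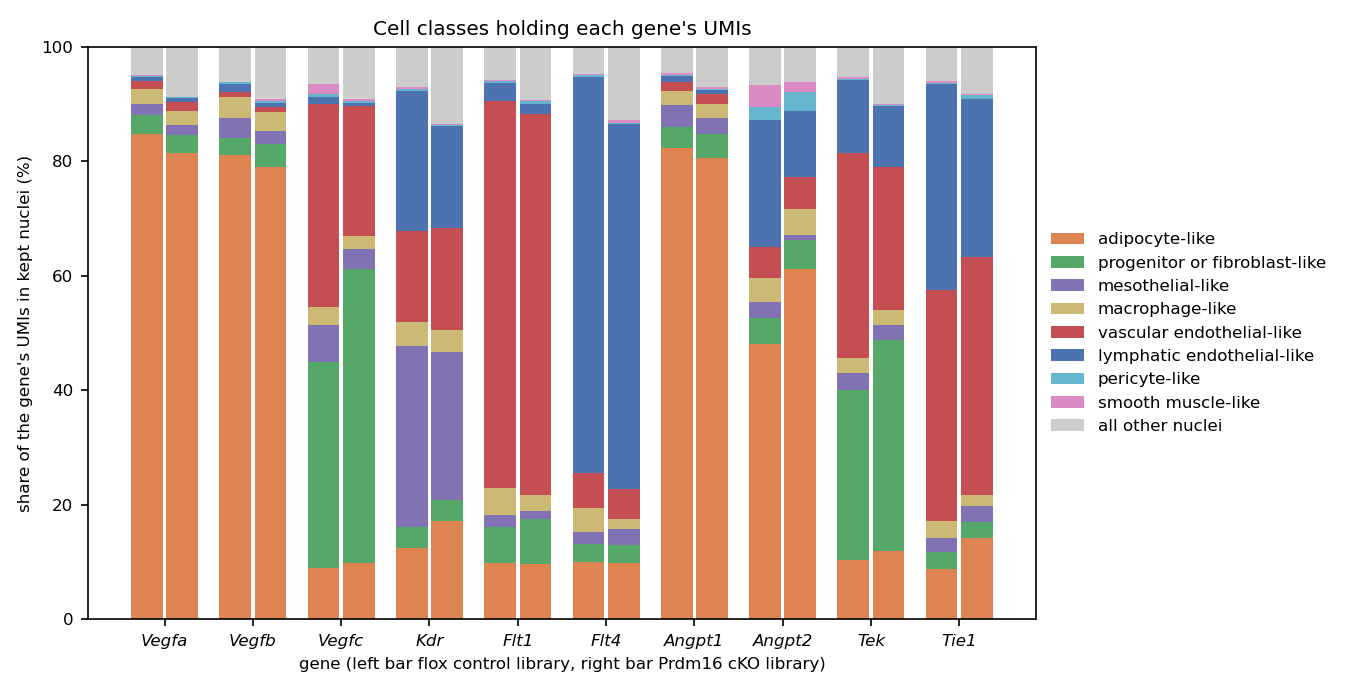
Share of each gene's UMIs (percent of all kept nuclei) held by 8 named classes and by all other nuclei, with the control library on the left and the library labelled cKO on the right of each pair. Adipocyte-like nuclei hold 84.8% and 81.4% of the Vegfa UMIs, and Kdr and Tek are each spread over 3 or more classes.

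Among fibroblast-like, mesothelial-like, macrophage-like, vascular endothelial-like and lymphatic endothelial-like nuclei, between 0 and 4 of the 10 genes passed 1.5-fold. Counts were higher in the T and B cell-like nuclei used as background. Of the 7 genes with at least 30 UMIs in T cell-like nuclei, 5 passed 1.5-fold (4 higher, 1 lower). Of the 7 in B cell-like nuclei, 6 did (3 higher, 3 lower). In fibroblast-like nuclei 0 of 10 genes passed 1.5-fold, against 10.1% of all genes with at least 30 UMIs. In mesothelial-like nuclei 2 of 9 did (Vegfa higher, Vegfc lower), against 10.6%. In macrophage-like nuclei 3 of 10 did (Vegfa higher, Flt4 and Tie1 lower), against 11.0%. In vascular endothelial-like nuclei 4 of 10 did (Vegfa and Vegfb higher, Vegfc and Tek lower), against 19.1%; that count was 1 as a mean of CPM per nucleus, 1 without doublet removal and 2 after thinning. In lymphatic endothelial-like nuclei 2 of 10 did (Vegfa higher, Vegfc lower), against 14.9%. The calls of Flt4 and Tie1 in macrophage-like nuclei rest on 67 and 17 UMIs and on 26 and 9 UMIs in the 2 libraries. That of Vegfb in vascular endothelial-like nuclei rests on 18 and 19 UMIs, with an interval from -0.29 to 1.73. Its sign turned without doublet removal (-0.33). None of these Flt4, Tie1 and Vegfb levels stood above the T and B cell-like interval of its library. The Vegfc levels of lymphatic endothelial-like nuclei lie inside the T and B cell-like intervals for Vegfc.

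**Figure D5:**
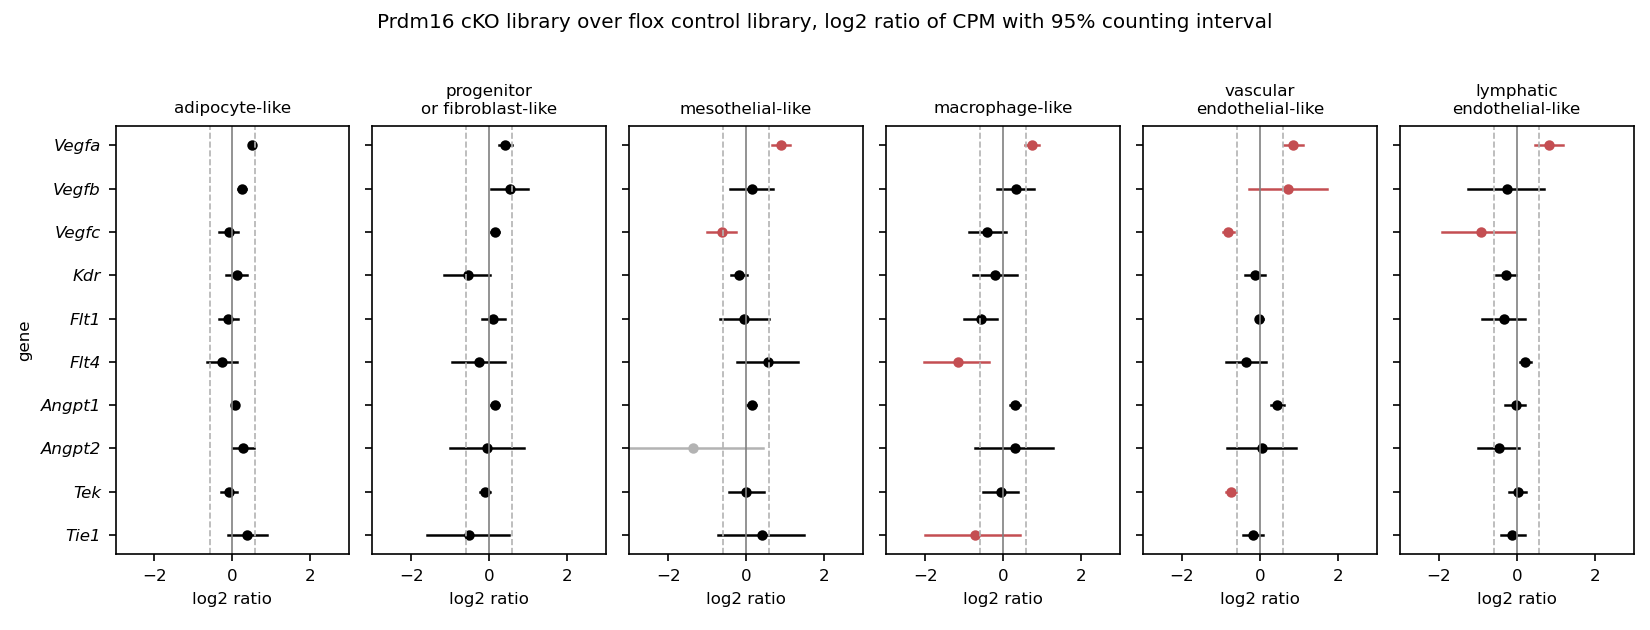
Log2 ratio of CPM, library labelled cKO over control library, for each gene (rows) in 6 classes (panels); points are ratios, lines are 95% counting intervals cropped at the axis limits, and dashed lines mark 1.5-fold. Red marks ratios past 1.5-fold, and grey marks a gene with fewer than 30 UMIs; Vegfa lies right of 0 in all 6 panels, and Tek lies left of the dashed line in vascular endothelial-like nuclei alone.

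Vegfa was higher in the library labelled cKO in every one of these classes. The log2 ratio was 0.41 in fibroblast-like, 0.75 in macrophage-like, 0.83 in lymphatic endothelial-like, 0.86 in vascular endothelial-like and 0.89 in mesothelial-like nuclei, and 0.86 in T cell-like and 1.76 in B cell-like nuclei. Among the 12 classes, no Vegfa level of the library labelled cKO outside adipocyte-like and acinar-like nuclei stood above the interval of the T and B cell-like level of that library. The median adipocyte marker level went from 19.1% to 24.0% of the adipocyte-like level in mesothelial-like nuclei and from 24.0% to 31.6% in macrophage-like nuclei. It went from 20.5% to 27.9% in lymphatic endothelial-like nuclei and from 19.5% to 22.4% in fibroblast-like nuclei. The vascular endothelial-like clusters differed. Cluster 13 had 102 and 223 CPM of Vegfa, a log2 ratio of 1.13 (0.80 to 1.47), and its level in the library labelled cKO stood above the T and B cell-like interval of 154 to 189 CPM. Cluster 20 had 62.9 and 96.7 CPM, a ratio of 0.62 (-0.04 to 1.28), and cluster 21 had 105 and 106 CPM. Adipocyte markers in cluster 13 stood at a median of 32.9% and 60.6% of the adipocyte-like level. The second value was above the 44.1% of T cell-like and the 50.6% of B cell-like nuclei of that library. In the same library the median was 27.4% in cluster 20 and lower in cluster 21. The part of free RNA in these Vegfa differences, and in the Vegfa level of cluster 13, was not tested.

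The pathway around these genes was followed with a list of 33 further genes, all of them in the files. In adipocyte-like nuclei 30 had at least 30 UMIs, and 4 passed 1.5-fold against the 11.0% of all genes given above: Pgf (log2 ratio 0.85) and Apln (0.83) higher, Angpt4 (-1.66) and Hif3a (-0.73) lower. The first 3 of these lie under 2 CPM in both libraries. The mRNA levels of the hypoxia-inducible factors that drive Vegfa transcription differed little. Hif1a stood at 113 and 125 CPM, Epas1 at 193 and 194 CPM and their partner Arnt at 285 and 287 CPM. The protein levels and activity of these factors were not measured. Ppargc1a, a coactivator known to induce Vegfa apart from hypoxia, stood at 94.5 and 109 CPM. The median log2 ratio of the list was 0.04, the same as that of all genes.

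In vascular endothelial-like nuclei 27 of the 33 were measured and 3 passed 1.5-fold, against 19.1% of all genes: Vhl (log2 ratio 0.64) and Ppargc1a (28.9 and 66.5 CPM) higher and the apelin receptor Aplnr (-0.85) lower. The median log2 ratio of the 27 genes was -0.11. Ppargc1a was also called higher in macrophage-like (0.65) and T cell-like nuclei (0.97). Adipocyte markers in vascular endothelial-like nuclei stood at a median of 24.7% and 43.7% of the adipocyte-like level. The part of free RNA in the Ppargc1a difference of the vascular endothelial-like nuclei was not tested. Ptprb, the phosphatase that restrains Tek, had 1672 and 1365 CPM (log2 ratio -0.29), the co-receptor Nrp1 741 and 619 CPM (-0.26), and Epas1 763 and 610.1 CPM (-0.32). Nos3, the nitric oxide synthase downstream of VEGF signalling, had 221 and 196 CPM and the Notch ligand Dll4 29.6 and 30.7 CPM. In lymphatic endothelial-like nuclei 0 of 23 passed. Nrp2, the co-receptor of Flt4, stood there at 723 and 797 CPM, its highest level in the 12 classes, and Nrp1 at 140.2 and 172 CPM. In fibroblast-like nuclei 3 of 29 passed, in mesothelial-like nuclei 1 of 27 and in macrophage-like nuclei 3 of 26.

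Ccbe1 and Adamts3, which prepare VEGF-C, stood higher in stroma and serosa than in the endothelium that holds the most Vegfc. Ccbe1, which brings VEGF-C to its protease, had 1273 and 1347 CPM in mesothelial-like and 212 and 294 CPM in fibroblast-like nuclei, against 52.2 and 54.0 CPM in vascular endothelial-like nuclei. Adamts3, the protease that cleaves VEGF-C, had 114 and 125 CPM in mesothelial-like and 88.7 and 76.1 CPM in fibroblast-like nuclei, against 14.6 and 10.8 CPM. Svep1, a matrix protein needed for lymphatic remodelling and listed beside them, had 1041 and 1151 CPM in fibroblast-like nuclei. In adipocyte-like nuclei it had 454 and 411 CPM. None of these values passed 1.5-fold between the libraries.

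Genes with the most similar pattern were sought among 14614 genes by Pearson correlation of log2(CPM + 1) over 24 points, the 12 classes in 2 libraries; points of a library share its free RNA, and the correlations are descriptions. The nearest to Vegfa were the lipogenic genes Me1 (r = 0.943), Pnpla3 (0.940) and Acly (0.934). The nearest to Angpt1 was Gpc4 (0.911) and to Vegfb Ganc (0.853), and to Vegfc the matrix gene Mgp (0.895). For Kdr these were Tll1 (0.952), Podxl (0.934) and F11r (0.933), of which Podxl is a sialomucin of endothelium and mesothelium. Flt1 was nearest to Dach1 (0.915), Flt4 to Reln (0.915), Tek to Fgd5 (0.932), Tie1 to Nova2 (0.960) and Angpt2 to Gucy1b1 (0.921), a subunit of the nitric oxide receptor of smooth muscle. Among the 10 genes themselves the highest values were 0.80, between Tie1 and each of Kdr, Flt4 and Tek.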

How the data were processed

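Nuclei of mesenteric perivascular fat were profiled in 2 libraries, 1 per genotype, with a 10x 3′ kit (version 3.1, per the labels' protocols). The authors deposited raw UMI counts per gene and barcode, and per the submitters' processing notes these were made with Cell Ranger 6.1.2 on mm10; whether intronic reads were included is not given in the sources used here. The deposited counts held no normalization.

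Nuclei with at least 500 UMIs, 300 genes and at most 5% mitochondrial UMIs were kept (449 control and 217 cKO barcodes failed the last). The automatic Scrublet threshold marked 0.0517% and 0.0127% of nuclei and had not worked, so the highest-scoring nuclei were removed at a preset 9.29% and 6.30% rate (1079 and 495 nuclei). Counts were clustered (2000 variable genes, 30 components, 20 neighbours, Leiden resolution 1.0; scanpy 1.11.5, leidenalg 0.10.2), with the 10 genes and the pathway list left out. A class name needed at least 3 markers in 5% of nuclei and at 2 times the median of the other clusters; clusters with 3 lymphatic markers at 10-fold were called lymphatic, a rule chosen after seeing the data. Clusters 5 and 17 stayed unnamed, and macrophage, lymphocyte and other classes served as comparison.

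UMIs were summed per class and library and given as CPM with 95% exact intervals (scipy 1.17.1), which cover counting error only. A gene was called at 1.5-fold with at least 30 UMIs over both libraries. Shares were thinned to 1000 UMIs, which left out 27 control and 132 cKO nuclei. All 10 genes, and the pathway list by examples, were named by rule; members and lists were chosen with earlier results of these data known. Scripts were tested on simulated data. Alternatives included TMM scaling (edgeR 4.0.16), means over nuclei, thinning, doublet, resolution and free RNA settings. Gene positions are from GENCODE on the mm10 assembly.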

Additional observations from a re-analysis of the deposited data

How the results depend on the processing

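With 1 library per genotype there was no replicate to leave out. No paired analysis was possible because each group has 1 library. The Vegfa log2 ratio in adipocyte-like nuclei (0.50) was 0.46 with TMM scaling, 0.46 after thinning to 1000 UMIs and 0.11 with the T and B cell-like level subtracted. Within adipocyte-like clusters 0, 1, 3, 6 and 8 it was 0.40, 0.46, 0.40, 0.35 and 0.39, and 0.40 with those clusters weighted alike; all 18 alternatives stayed above 0. The count of the 10 genes past 1.5-fold in adipocyte-like nuclei (0) was 4 after thinning, 1 with 10% free RNA subtracted and 1 with the T and B cell-like level subtracted (3 genes left to count). In vascular endothelial-like nuclei the count (4) was 1 as a mean of CPM per nucleus, 2 after thinning and 1 without doublet removal, and 3 or 4 under the other settings; the causes were not tested. Vegfb in vascular endothelial-like nuclei turned to -0.33 without doublet removal. Vegfc there ranged from -0.86 to -0.08 and Tek from -0.79 to -0.31 over 16 alternatives each. Of 789 recomputed ratios of single genes, 685 moved by less than their interval, 103 moved by more and 1 reversed. Of 237 recomputed ratios of a leading class to the next, 196 moved by less, 41 by more and 0 reversed. Only a ratio past 1.5-fold that changed sign was counted as reversed. Smaller ratios that changed sign are among the others, such as Tie1 in lymphatic endothelial-like nuclei (-0.11, above 0 in 6 of 14 alternatives). Low depth limits Angpt2, Vegfb and all pericyte-like and smooth muscle-like values.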

Other observations

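Unnamed cluster 5, whose nuclei are shallow and led by no class's markers, numbered 463 control nuclei and 936 in the library labelled cKO. Its Vegfa level was 212 CPM (191 to 234) and 297 CPM (277 to 319), between adipocyte-like and T and B cell-like levels, and the adipocyte markers stood there at a median of 68.4% and 69.1% of the adipocyte-like level. Vegfc in natural killer or innate lymphoid-like nuclei stood at 64.7 CPM (49.5 to 83.1) in the control library and 50.2 CPM (31.1 to 76.8) in the library labelled cKO, above the T and B cell-like intervals of both libraries. That class rests on 3 markers (Il1rl1, Gata3 and Il7r). Prdm16 itself was among the leading genes of arterial-like vascular cluster 21, and in vascular endothelial-like nuclei it stood at 380.0 CPM in the control library and 206 CPM in the library labelled cKO. Cluster 21 made up 34.5% of the class's UMIs in the control library and 20.4% in the library labelled cKO, and within it Prdm16 stood at 1039.8 CPM (976 to 1107) and 898 CPM (803 to 1002).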
